A study of Mus musculus with 18 samples.

Results

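The interaction of genotype and operation was examined in 12 livers of the 18 in the series, those taken 1 day after the operation, and 14266 of the 50600 genes in the count table had enough counts to be tested. It asks whether the hepatic response to myocardial infarction (MI) differed with the mineralocorticoid receptor (MR) genotype of the hepatocytes, and it is the log2 change from sham to MI in HMRKO livers minus the same change in LC livers. Each of the 4 groups held 3 livers. Littermate control (LC) mice carry MR flox/flox alleles, which the labels call wild type, and hepatocyte MR knockout (HMRKO) mice carry MR flox/flox with Alb-Cre, which the labels call MR-/-. Alb-Cre drives recombination from the albumin promoter, so liver cells in which that promoter has not been active keep the gene. Mice of both genotypes were C57BL/6 males at postnatal week 12. MI was made by tying off the left anterior descending artery of the heart for good, and sham mice had the same surgery without the ligation, so anesthesia and surgery are shared by all 4 groups. The labels of the MI livers name no operation and no label gives the time, and both were taken from the study design. The time of day at which livers were taken is not given in the sources used here.

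MR, the product of Nr3c2, is a nuclear receptor that binds aldosterone and, in cells that do not inactivate them, glucocorticoids, and it shares DNA sites with the glucocorticoid receptor. After tissue injury the liver turns to the acute phase response, in which IL-6 signals through STAT3 to raise plasma proteins such as fibrinogen. The liver also sends hormones to other organs, and FGF21, induced by fasting and by cellular stress, is one of them.

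The livers held 19098704 to 28945526 counts each. Nr3c2 (ENSMUSG00000031618), the targeted gene, was at 5.60, 6.70 and 4.71 CPM (counts scaled to a common library size) in LC + sham and at 2.93, 3.76 and 2.55 CPM in HMRKO + sham, with no overlap. This difference of −0.88 log2 units between the sham groups did not pass (edgeR adjusted p = 0.47). After MI Nr3c2 was at 3.56, 2.13 and 1.9 CPM in LC and at 0.895, 1.10 and 0.913 CPM in HMRKO livers. It fell after MI in both genotypes, with an interaction of −0.48 on the log2 scale (standard error 0.38, edgeR adjusted p = 0.408). Counts cover the whole gene and all liver cells, so the reads that remain in HMRKO livers cannot be assigned to a cell type. The share of counts from mitochondrially encoded genes was 18.9% in LC + MI replicate 1, against 10.9% and 12.3% in replicates 2 and 3 of that group, and 15.6% in HMRKO + sham replicate 2. No label says that the livers of a group came from separate experiments or days, so p values measure the spread between these 12 livers.

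The response to MI differed between the genotypes for 565 genes in the higher direction (3.96% of the genes tested) and 876 genes in the lower direction (6.14%), with the adjusted p from edgeR under 0.05 and the log2 difference over 1 in size. At any size of difference 962 genes (6.74%) were higher and 1213 (8.5%) lower, and 4750 genes had an unadjusted p under 0.05. "Higher" here means that the change from sham to MI was more positive in HMRKO than in LC livers. Side by side, 355 genes (2.49%) were called after MI in LC livers and 2914 (20.4%) in HMRKO livers, and these 2 counts share no livers. Of the 2175 genes that passed the interaction test at any size, 1921 also passed the test of the response in HMRKO livers and not that in LC livers, 79 passed in both in the same direction, 11 passed in both in opposite directions, 43 passed in LC livers only and 121 in neither. Whether a gene passed in one genotype and not in the other is not itself a test of the difference, which the interaction is. The libraries had a common biological coefficient of variation of 0.209.

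**Figure D1:**
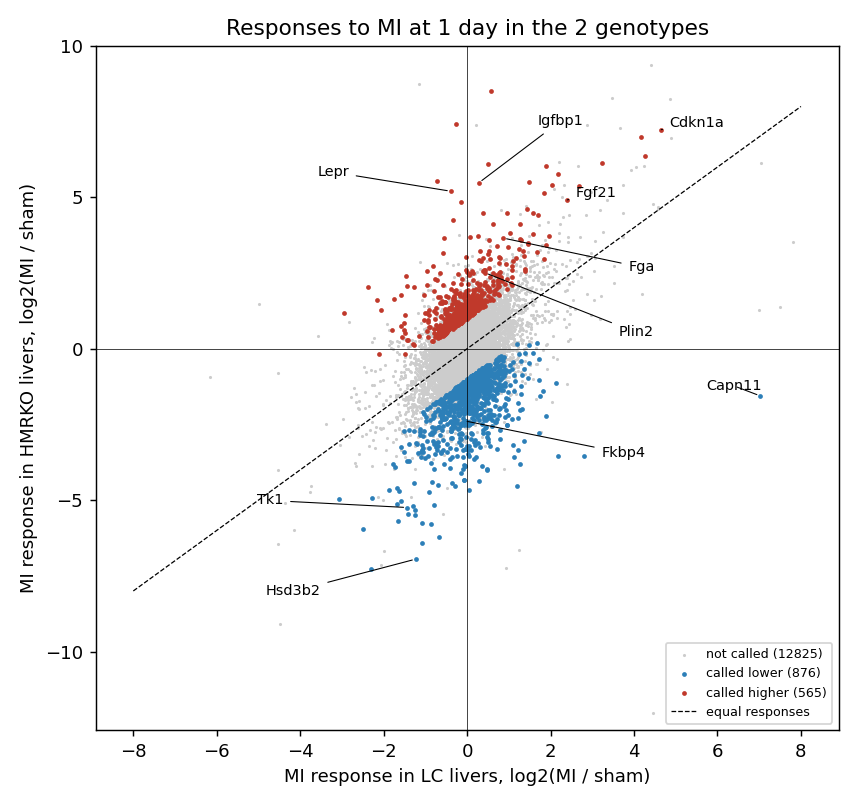
Each point is 1 of 14266 genes, with the log2 change from sham to MI in LC livers on the x axis and in HMRKO livers on the y axis (3 livers per group). The 565 genes called higher (red) lie above the dashed line of equal responses and the 876 called lower (blue) below it, most of them near 0 on the x axis.

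Most called genes moved in HMRKO livers and little in LC livers. Among the 565 higher genes the median response was 1.28 log2 units in HMRKO livers and −0.12 in LC livers, and among the 876 lower genes it was −1.54 and 0.11. For 357 of the higher genes (63.2%) and 642 of the lower genes (73.3%) the HMRKO response was over 1 log2 unit in size and the LC response within 1. Both responses were within 1 for 146 and 148 genes, both were over 1 with the same sign and the HMRKO response larger for 37 and 45, and the LC response alone was over 1 for 14 and 16. In 454 of the 565 higher genes the 3 HMRKO + MI livers were above all 9 others, and in 736 of the 876 lower genes they were below all 9 others. Over all genes tested, 16.3% were so placed above and 15.9% below. The same contrast chose the genes and placed the livers, so these counts describe the calls and add no test. Between the sham groups, 5 of 14266 genes differed with an edgeR adjusted p under 0.05, and 838 had an unadjusted p under 0.05.

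LC + MI replicate 1 stood apart within its group. Of the 1441 called genes it was the LC + MI liver farthest from the direction of HMRKO + MI in 1193 (82.8%), against 62.1% over all genes tested. The corresponding places were held by LC + sham replicate 2 for 60.2% of the called genes (45.3% over all genes tested), HMRKO + sham replicate 2 for 56.3% (47.2%) and HMRKO + MI replicate 1 for 51.6% (40.9%). Without LC + MI replicate 1 the calls were 341 higher and 532 lower, of which 326 and 517 were also called with all livers. Without LC + sham replicate 2 they were 292 and 514 (280 and 491 shared), and without HMRKO + sham replicate 2 they were 364 and 595 (326 and 572 shared). No called gene changed sign when any 1 liver was left out. Called-higher genes together took 17.1% to 18.8% of all counts in HMRKO + MI livers and 4.88% to 9.63% in the other 9, and called-lower genes 6.00% to 6.5% and 8.58% to 15.8%. The part of the mitochondrial share in these counts was not tested.

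**Figure D2:**
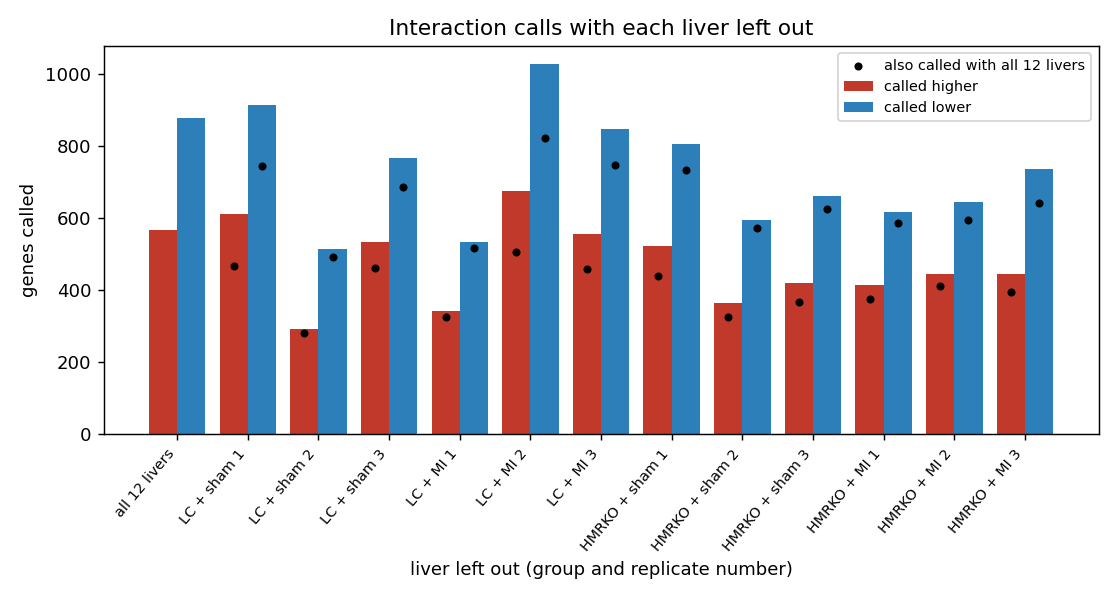
Bars give the genes called higher and lower in the interaction (y axis, number of genes) with all 12 livers and with each liver left out in turn (x axis), and dots give how many of them were also called with all livers. The counts ran from 292 to 674 higher and from 514 to 1026 lower, lowest without LC + sham replicate 2.

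Fgf21 and the receptors and regulators that the study names for the liver did not share one pattern. Fgf21 (ENSMUSG00000030827) was at 0.754, 0.259 and 0.261 CPM in LC + sham, 1.80, 3.42 and 1.63 in LC + MI, 0.670, 0.289 and 0.527 in HMRKO + sham and 22.5, 13.6 and 9.84 in HMRKO + MI. The 2 sham groups overlapped, and both MI groups lay above them, HMRKO + MI highest. It rose by 2.40 log2 units in LC and by 4.92 in HMRKO livers, an interaction of 2.51 (standard error 0.70, edgeR adjusted p = 0.0323). This p was over 0.05 when any 1 of 6 livers was left out, up to 0.122, and it was 0.0763 from limma-voom. Il6ra (ENSMUSG00000027947), the ligand-binding chain of the IL-6 receptor, was at 38.8, 42.9 and 37.0 CPM in LC + sham, 25, 29 and 28.8 in LC + MI, 21.7, 20.8 and 18.3 in HMRKO + sham and 38.4, 30.7 and 35.3 in HMRKO + MI. It fell in LC livers (log2 change −0.52) and rose in HMRKO livers (0.78), with an interaction of 1.3 (standard error 0.18, adjusted p = 0.00405 from edgeR). HMRKO + MI livers overlapped LC + sham and lay above LC + MI, and the 3 HMRKO + sham livers were the lowest of the 12. The difference of HMRKO from LC was −0.96 log2 units in sham livers (edgeR adjusted p = 0.0415). In MI livers it was 0.33 and did not pass (edgeR adjusted p = 0.0652). The low HMRKO + sham level thus entered the interaction. Stat3 (ENSMUSG00000004040), the transcription factor downstream of IL-6, was at 188, 169 and 193 CPM in HMRKO + MI and between 81.3 and 129 CPM in the other 9 livers (interaction 0.88, standard error 0.25, adjusted p = 0.0327 from edgeR), and it missed the threshold when any 1 of 9 livers was left out, with an adjusted p of up to 0.0731.

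Nr1d1 and Nr1d2, the REV-ERB repressors of the clock, fell in both genotypes. Nr1d1 was at 56.4 to 92.8 CPM in LC + sham, 8.06 to 24.9 in LC + MI, 80.9 to 84.5 in HMRKO + sham and 16.2 to 27.8 in HMRKO + MI (interaction 0.46, standard error 0.50, adjusted p = 0.553 from edgeR). Nr1d2 had an interaction of −0.0070 (standard error 0.22, adjusted p = 0.984). For the corepressor genes Ncor1 and Hdac3, whose products act with the REV-ERBs, the values were −0.22 (standard error 0.20, adjusted p = 0.479) and −0.56 (standard error 0.21, adjusted p = 0.0813). These p values do not show equal responses. Of the 6 tested genes of the NCoR and HDAC3 complex, 1 passed (16.7%, beside 15.2% of all genes). It was Tbl1xr1, an exchange factor for corepressors, at 69.8, 48.8 and 55.4 CPM in HMRKO + MI and 16.8 to 33.7 CPM elsewhere (interaction 1.05, adjusted p = 0.0137).

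**Figure D3:**
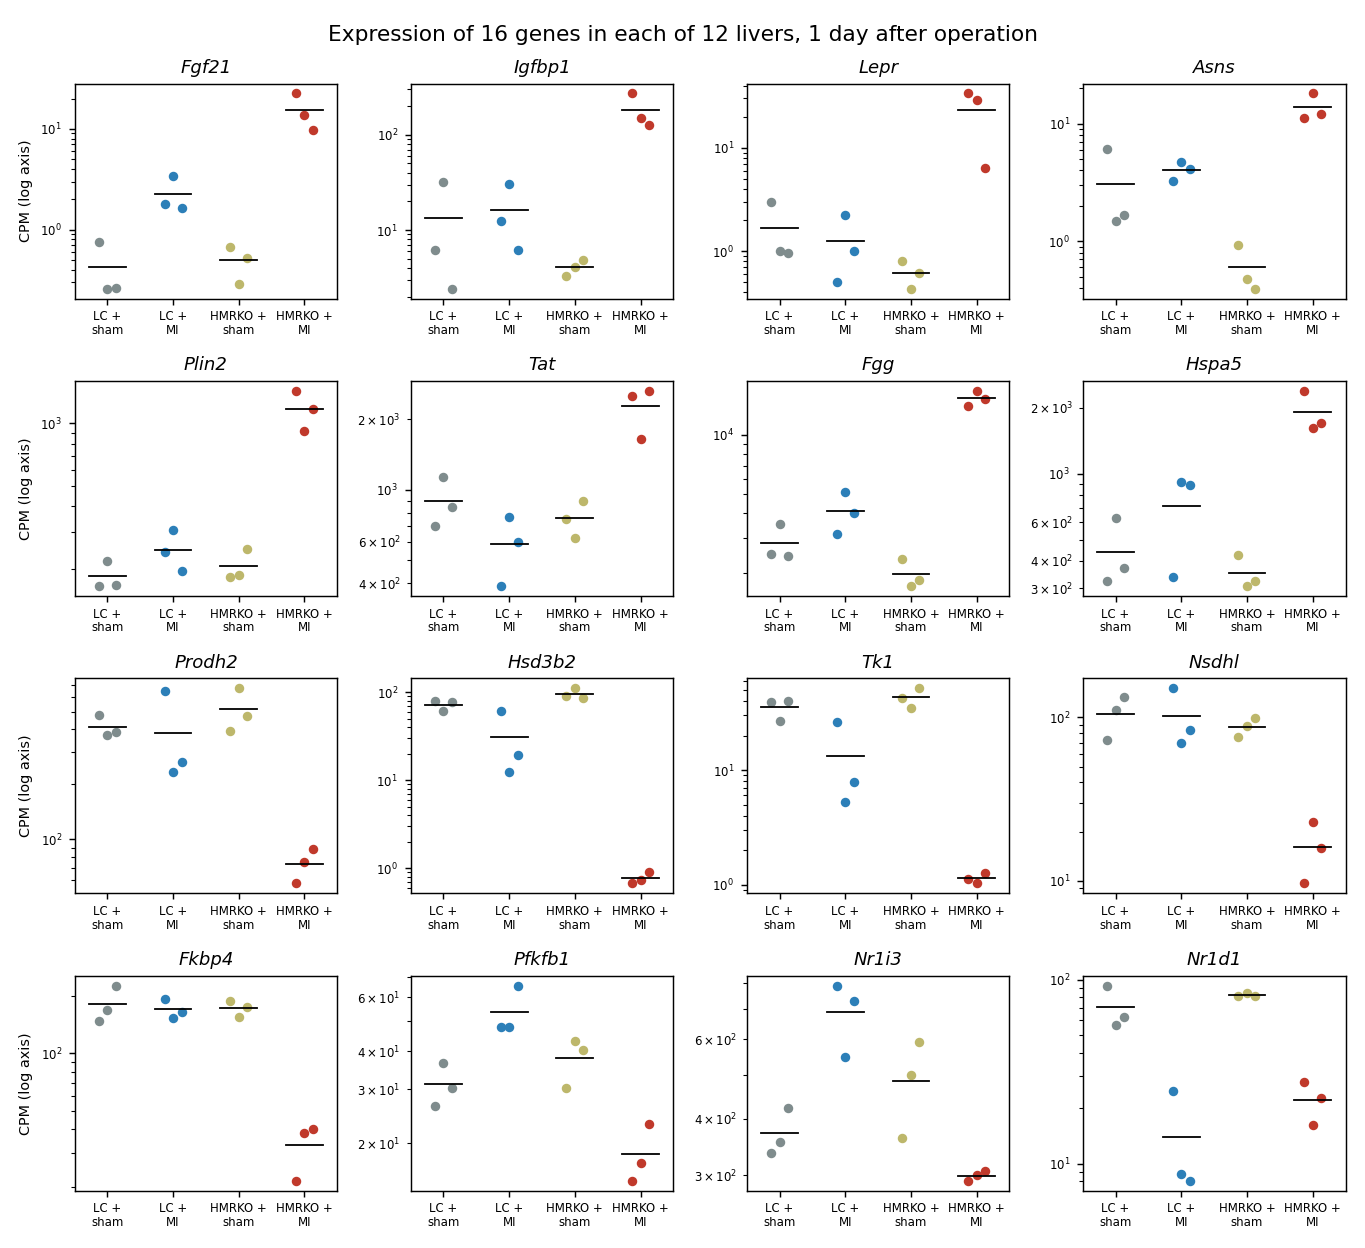
Points are TMM-scaled CPM (y axis, log scale) of 16 genes in each of 12 livers by group (x axis), and lines are group means. HMRKO + MI livers stood above the other 9 for Fgf21, Igfbp1, Lepr, Asns, Plin2, Tat, Fgg and Hspa5 and below them for Prodh2, Hsd3b2, Tk1, Nsdhl, Fkbp4, Pfkfb1 and Nr1i3, whereas both MI groups were low for Nr1d1.

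Acute phase genes that passed had a more positive response in HMRKO than in LC livers. Of 39 tested, 11 passed the interaction test in the higher direction and 0 in the lower, beside 6.74% and 8.5% of all genes. The median interaction was 0.62, against 0.0018 over all genes. All 3 fibrinogen chains were among the 11. Fga (ENSMUSG00000028001) was at 2069, 3071 and 1857 CPM in LC + sham, 2542, 5494 and 4680 in LC + MI, 1970, 1388 and 1488 in HMRKO + sham and 15576, 23026 and 22439 in HMRKO + MI (interaction 2.79, standard error 0.42, adjusted p = 0.00537 from edgeR). Fgg (ENSMUSG00000033860) had an interaction of 2.42 (standard error 0.32, adjusted p = 0.00403) and Fgb (ENSMUSG00000033831) one of 1.86 (standard error 0.30, adjusted p = 0.00629). The HMRKO + MI livers were above every other liver for each chain. Together the 3 chains took 5.06% to 6.51% of all counts in HMRKO + MI livers, 1.12% to 2.36% in LC + MI, 0.924% to 1.27% in LC + sham and 0.652% to 0.914% in HMRKO + sham. Serpina3m, a serine protease inhibitor of a family with near-identical copies, was at 254, 465 and 435 CPM in LC + MI and at 1093, 1085 and 1053 CPM in HMRKO + MI, against 111 to 171 CPM in the sham livers (interaction 1.88, adjusted p = 0.00629). The number passing higher was 6 to 11 with 1 liver left out, lowest without LC + sham replicate 2, and 21 from limma-voom.

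Of 35 genes of IL-6 and STAT3 signaling, 7 passed in the higher and 1 in the lower direction (median 0.19), beside 6.74% and 8.5% of all genes. With 1 liver left out these counts ran from 3 to 8 and from 0 to 3. Besides Il6ra and Stat3 they included Cebpd, a transcription factor induced in the acute phase, at 36.6, 24.6 and 28.6 CPM in HMRKO + MI and 7.07 to 16.1 CPM in the other livers (interaction 1.47, adjusted p = 0.0176). Il1r1, the receptor of interleukin-1, was at 683, 383 and 422 CPM in HMRKO + MI and 24.4 to 135 CPM elsewhere (interaction 2.73, adjusted p = 0.0211, and 0.0514 without LC + sham replicate 2).

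The unfolded protein response raises the chaperones of the endoplasmic reticulum, where secreted proteins are folded. After MI, 8 of the 27 genes tested rose in LC livers and 19 in HMRKO livers, beside 382 and 3138 of all 14266 genes. In the interaction 7 of the 27 passed in the higher and 0 in the lower direction, beside 6.74% and 8.5% of all genes. The median interaction was 0.68, beside median responses of 0.61 in LC and 1.23 in HMRKO livers. Hspa5 (ENSMUSG00000026864), the chaperone BiP, was at 325, 629 and 369 CPM in LC + sham, 338, 911 and 887 in LC + MI, 423, 307 and 324 in HMRKO + sham and 2387, 1617 and 1697 in HMRKO + MI. Its interaction was 1.74 (standard error 0.49, adjusted p = 0.0336 from edgeR) and its adjusted p was over 0.05 when any 1 of 4 livers was left out, up to 0.0846. LC + MI replicate 1 lay among the sham livers for this gene. Hsp90b1, the chaperone GRP94, had an interaction of 1.51 (adjusted p = 0.0328), over 0.05 when any 1 of 6 livers was left out (up to 0.0807) and with an offset for GC content (0.0508), and Xbp1, the transcription factor of the response, one of 1.3 (adjusted p = 0.0124). The number that passed was 3 when LC + MI replicate 1 was left out and 1 when LC + sham replicate 2 was, with medians of 0.52 and 0.51.

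Genes of the integrated stress response, which the factor ATF4 drives when amino acids are short or translation is slowed, were also more often higher than lower in the interaction. Of 22 tested, 7 passed higher and 1 lower, beside 6.74% and 8.5% of all genes, and 5 to 8 passed higher when 1 liver was left out. Asns (ENSMUSG00000029752), asparagine synthetase, was at 6.10, 1.48 and 1.68 CPM in LC + sham, 3.26, 4.70 and 4.08 in LC + MI, 0.922, 0.482 and 0.395 in HMRKO + sham and 11.1, 18 and 12.1 in HMRKO + MI (interaction 4.12, standard error 0.70, adjusted p = 0.00752 from edgeR). The low HMRKO + sham level and the high HMRKO + MI level both entered this difference. Mthfd2, a mitochondrial folate enzyme, was at 12.1, 9.31 and 8.22 CPM in HMRKO + MI and at most 2.77 CPM elsewhere (interaction 2.31, adjusted p = 0.0109). Chac1, which degrades glutathione, had an interaction of 2.50 (adjusted p = 0.0143) and Gpt2, a mitochondrial alanine aminotransferase, one of 1.99 (adjusted p = 0.0112).

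Promoter sequence was searched for the sites that these 3 programs are known to use. The 250 bases before the start were taken from RefSeq (GRCm38.p6), matched by symbol for 10371 of 14242 tested symbols, and both strands were read. Shown are 6 genes that passed the interaction test and held a match, 2 for each program, printed in lower case with the match in capitals. TGATGNAA is the core of the C/EBP-ATF response element, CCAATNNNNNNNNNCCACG is the endoplasmic reticulum stress response element, which contains a CCAAT box, and CTGGGAA is the core of the IL-6 response element of acute phase genes.
Asns (chr6:7693210-7693459, minus strand): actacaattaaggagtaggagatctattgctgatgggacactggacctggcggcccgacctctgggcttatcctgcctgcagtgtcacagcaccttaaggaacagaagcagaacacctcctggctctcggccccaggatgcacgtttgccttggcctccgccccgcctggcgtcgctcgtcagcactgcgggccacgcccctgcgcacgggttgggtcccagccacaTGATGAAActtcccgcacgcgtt
Chac1 (chr2:119350992-119351241, plus strand): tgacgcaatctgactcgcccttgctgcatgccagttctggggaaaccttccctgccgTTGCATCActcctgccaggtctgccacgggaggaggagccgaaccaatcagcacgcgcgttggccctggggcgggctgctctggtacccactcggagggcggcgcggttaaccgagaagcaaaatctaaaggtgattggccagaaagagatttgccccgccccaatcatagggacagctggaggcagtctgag
Hspa5 (chr2:34771840-34772089, plus strand): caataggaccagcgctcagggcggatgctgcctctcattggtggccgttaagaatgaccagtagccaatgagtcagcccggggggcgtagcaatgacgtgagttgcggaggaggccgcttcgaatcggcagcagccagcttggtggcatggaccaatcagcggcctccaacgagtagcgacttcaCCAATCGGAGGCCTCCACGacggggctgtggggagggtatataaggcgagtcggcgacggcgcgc
Hsp90b1 (chr10:86705445-86705694, minus strand): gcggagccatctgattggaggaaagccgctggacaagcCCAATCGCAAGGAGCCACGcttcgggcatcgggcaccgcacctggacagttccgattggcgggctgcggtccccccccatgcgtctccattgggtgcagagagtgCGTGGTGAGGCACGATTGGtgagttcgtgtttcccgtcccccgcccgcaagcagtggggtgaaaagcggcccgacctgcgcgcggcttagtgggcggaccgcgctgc
Fgg (chr3:83007474-83007723, plus strand): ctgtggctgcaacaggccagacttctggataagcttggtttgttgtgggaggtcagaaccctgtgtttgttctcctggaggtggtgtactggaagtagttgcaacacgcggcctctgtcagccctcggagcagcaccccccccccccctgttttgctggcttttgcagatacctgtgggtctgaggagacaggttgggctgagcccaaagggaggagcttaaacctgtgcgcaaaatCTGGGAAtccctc
Fgb (chr3:83049864-83050113, minus strand): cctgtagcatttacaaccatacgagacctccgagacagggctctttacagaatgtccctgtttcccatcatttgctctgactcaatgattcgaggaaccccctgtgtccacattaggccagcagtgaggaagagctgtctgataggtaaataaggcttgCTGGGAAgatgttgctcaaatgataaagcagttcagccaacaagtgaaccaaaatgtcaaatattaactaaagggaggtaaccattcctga

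The match in Asns ended 15 bases before the start, that in Hspa5 46 bases, the nearer of 2 in Hsp90b1 88 bases, that in Fgg 6 bases and that in Fgb 84 bases, while the match in Chac1 lay 185 bases away. The match in Chac1 and the nearer one in Hsp90b1 were on the other strand. TGATGNAA occurred in 4.32% of the 417 promoters of higher genes, 2.82% of the 639 of lower genes and 2.07% of all 10371. It was in 5 of 20 promoters of the integrated stress response list (Asns, Atf3, Chac1, Fgf21 and Nupr1), of which Asns, Chac1 and Fgf21 passed the interaction test. The stress response element of the endoplasmic reticulum was in 0.480% of the promoters of higher genes, in 0 of the 639 of lower genes and in 0.164% of all promoters, and in 9 of 23 of the unfolded protein response list, but in only 2 of the 6 whose gene passed. CTGGGAA stood in 8.15% of higher, 10.2% of lower and 9.53% of all promoters, and in 7 of 32 acute phase promoters, 3 of them of genes that passed. The glucocorticoid receptor half-site AGAACA stood in 10.3% of higher, 11.3% of lower and 11.2% of all promoters, and the sterol element TCACNCCAC in 1.68%, 0.939% and 1.01%. AGAACA was in 2 of 22 promoters of the glucocorticoid-responsive list, both of genes that passed. The sterol element was in 1 of 17 promoters of the cholesterol synthesis list and in 0 of the 7 whose gene passed. Of 5 further motifs, TTCNNNGAA (STAT palindrome) stood in 7.19% of higher, 4.85% of lower and 6.2% of all promoters and GGGCGG (GC box) in 59.5%, 50.7% and 57.2%. CACGTG (E-box) stood in 9.83%, 8.45% and 8.39%, TTATGTAA (D-box) in 0.719%, 0.626% and 0.540%, and CCAAT alone in 35.7%, 40.7% and 36.5%. These are matches of letters in a short window and describe no binding.

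Corticosteroid receptors and genes that respond to glucocorticoids moved in both directions. Of 28 tested, 7 passed higher and 3 lower (4 to 9 and 1 to 3 with 1 liver left out), beside 6.74% and 8.5% of all genes. The median interaction was 0.91, the median LC response −0.16 and the median HMRKO response 0.81. Tat (ENSMUSG00000001670), tyrosine aminotransferase, a classical glucocorticoid target, was at 701, 1137 and 843 CPM in LC + sham, 388, 768 and 600 in LC + MI, 749, 623 and 896 in HMRKO + sham and 2522, 1654 and 2648 in HMRKO + MI (interaction 2.2, standard error 0.39, adjusted p = 0.00811 from edgeR). Klf9 (ENSMUSG00000033863), a Krüppel-like factor that glucocorticoids induce, was at 15.3, 15.8 and 23.7 CPM in HMRKO + MI and 4.06 to 8.63 CPM elsewhere (interaction 2.17, standard error 0.34, adjusted p = 0.00581). Fkbp4 (ENSMUSG00000030357) encodes FKBP52, a cochaperone of steroid receptors, and went the other way. It was at 21.5, 38.3 and 39.9 CPM in HMRKO + MI and at 147 to 227 CPM in the other 9 livers (interaction −2.29, standard error 0.32, adjusted p = 0.00405). Heat shock and cytosolic chaperone genes, which include Fkbp4, had 3 lower and 0 higher of 22 (13.6%, beside 15.2% of all genes). Lpin1, a phosphatidate phosphatase, varied within groups (22.4, 142 and 106 CPM in LC + sham and 283, 90.6 and 72.1 CPM in HMRKO + MI), so its interaction of 3.38 (standard error 0.99, adjusted p = 0.0384) came with overlapping groups and missed the threshold when any 1 of 8 livers was left out (up to 0.0950).

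Enzymes of amino acid breakdown and the urea cycle held the most genes that passed higher of any metabolic list, 11 of 31, with 3 lower. Over all genes 6.74% passed higher and 8.5% lower. In LC livers 12 of the 31 fell after MI and 0 rose, and in HMRKO livers 10 rose and 14 fell. Over all 14266 genes 382 rose and 332 fell in LC livers, and 3138 rose and 3099 fell in HMRKO livers. With 1 liver left out, 7 to 12 of the 31 passed the interaction test higher. Ass1 (ENSMUSG00000076441), argininosuccinate synthase of the urea cycle, was at 1098, 1328 and 1141 CPM in LC + sham, 360, 571 and 558 in LC + MI, 1146, 703 and 1106 in HMRKO + sham and 889, 1017 and 1320 in HMRKO + MI. The 3 LC + MI livers lay below the other 9, so its interaction of 1.39 (standard error 0.33, adjusted p = 0.0196 from edgeR) reflects a fall in LC livers with a change of 0.13 in HMRKO livers. Arg1, arginase, was at 2717, 2166 and 2755 CPM in HMRKO + MI and 652 to 1304 CPM elsewhere (interaction 1.6, adjusted p = 0.00812). Mat1a (ENSMUSG00000037798), which makes S-adenosylmethionine, was at 6418, 7255 and 9132 CPM in HMRKO + MI and 1751 to 3200 CPM elsewhere (interaction 1.49, adjusted p = 0.00925). Prodh2, hydroxyproline dehydrogenase, was at 57.4, 75 and 88.5 CPM in HMRKO + MI and 235 to 672 CPM elsewhere (interaction −2.69, adjusted p = 0.00845).

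Of 22 genes of glucose handling 1 passed higher and 2 lower, beside 15.2% of all genes that passed in either direction. Pfkfb1 (ENSMUSG00000025271), the liver enzyme that sets fructose 2,6-bisphosphate, rose in LC livers (26.3, 36.6 and 30.4 to 47.9, 47.9 and 65.5 CPM) and fell in HMRKO livers (30.3, 43.2 and 40.2 to 15, 17.2 and 23.0 CPM), an interaction of −1.83 (standard error 0.28, adjusted p = 0.00545). Igfbp1 (ENSMUSG00000020429), a binding protein of insulin-like growth factors whose gene insulin represses, was at 271, 151 and 127 CPM in HMRKO + MI and 2.43 to 31.7 CPM in the other 9 livers (interaction 5.20, standard error 1.09, adjusted p = 0.0128).

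Cholesterol synthesis genes, the targets of SREBP2, passed in the lower direction only. Of 25 tested 8 passed lower and 0 higher, beside 8.5% and 6.74% of all genes. The interaction was negative for 22 of the 25, and its median was −1.03 beside median responses of 0.27 in LC and −0.79 in HMRKO livers. Nsdhl (ENSMUSG00000031349), a sterol dehydrogenase, was at 72.3, 111 and 134 CPM in LC + sham, 151, 70.0 and 83.2 in LC + MI, 76.1, 88.0 and 98.7 in HMRKO + sham and 9.62, 22.8 and 15.9 in HMRKO + MI (interaction −2.38, standard error 0.47, adjusted p = 0.0107 from edgeR). Dhcr7, the last reductase of the pathway, had an interaction of −2.12 (adjusted p = 0.0212, and 0.0515 without LC + sham replicate 2). Mvk, mevalonate kinase, had one of −1.66 (adjusted p = 0.0311), over 0.05 when any 1 of 6 livers was left out (up to 0.0704) and with a GC offset (0.0514). The number that passed lower was 3 when LC + MI replicate 1 was left out and 1 when LC + sham replicate 2 was, with medians of −0.81 and −1.04.

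Of 21 genes of fatty acid and triglyceride synthesis 2 passed higher and 2 lower (19%, beside 15.2% of all genes). Srebf1, the regulator of lipogenesis, fell in both genotypes and further in HMRKO livers, from 263, 242 and 417 to 40.1, 50.5 and 49.2 CPM (interaction −1.2, adjusted p = 0.0218, up to 0.0558 without LC + sham replicate 2 or HMRKO + MI replicate 1). Acss2, which activates acetate, had an interaction of −1.86 (adjusted p = 0.0167). Of 30 genes of fatty acid oxidation, 1 passed higher and 2 lower (10%, beside the same 15.2%). Cpt1a, the carnitine acyltransferase that admits fatty acids to mitochondria, was at 297, 269 and 455 CPM in HMRKO + MI and 125 to 190 CPM elsewhere (interaction 1.26, adjusted p = 0.0136). Vnn1, a pantetheinase, had an interaction of −2.01 (adjusted p = 0.0252, over 0.05 when any 1 of 4 livers was left out, up to 0.0581) with its highest values, 48.3 to 52.6 CPM, in HMRKO + sham.

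Of 19 lipid droplet genes, 5 passed higher and 2 lower (3 to 6 and 1 to 3 with 1 liver left out), beside 6.74% and 8.5% of all genes. Plin2 (ENSMUSG00000028494), the coat protein of droplets, was at 165, 219 and 168 CPM in LC + sham, 240, 307 and 196 in LC + MI, 184, 187 and 250 in HMRKO + sham and 1434, 924 and 1176 in HMRKO + MI (interaction 2.08, standard error 0.31, adjusted p = 0.00537 from edgeR). Pnpla2, the first lipase of triglyceride breakdown, was at 132, 123 and 143 CPM in HMRKO + MI and 52.2 to 79.4 CPM elsewhere (interaction 1.22, adjusted p = 0.00613), and Plin5, which couples droplets to mitochondria, had an interaction of 1.28 (adjusted p = 0.0155). Acsl3, an acyl-CoA synthetase of droplet growth, was lower (interaction −1.76, adjusted p = 0.0196).

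Of 21 bile acid genes 2 passed higher and 1 lower, beside the same 15.2% of all genes, and 0 passed lower when any 1 of 4 livers was left out. Abcb11, the bile salt export pump, was at 31.2, 72.6 and 78.1 CPM in HMRKO + MI and 161 to 460 CPM elsewhere (interaction −2.08, adjusted p = 0.0250, over 0.05 when any 1 of 4 livers was left out, up to 0.0620). Slco1a4, an uptake carrier, fell in LC livers (49.6, 12.7 and 30.1 to 7.51, 7.40 and 11.5 CPM) and was at 27.3, 14.5 and 12.9 CPM in HMRKO + sham and 27.0, 32.4 and 24.7 CPM in HMRKO + MI (interaction 2.42, adjusted p = 0.0181). Of 44 cytochrome P450 genes 2 passed, both lower (4.55%, below the same 15.2%). Cyp2c54, one of a family with near-identical copies, had an interaction of −2.30 (adjusted p = 0.0109).

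Nuclear receptors outside the clock and corticosteroid groups had 6 of 31 passing lower and 1 higher (median −0.50), beside 8.5% and 6.74% of all genes. Without HMRKO + sham replicate 3 the lower count was 2, and without LC + sham replicate 2 it was 3. Nr1i3 (ENSMUSG00000005677), the xenobiotic receptor CAR, rose in LC livers from 335, 356 and 423 to 789, 547 and 728 CPM and fell in HMRKO livers from 363, 499 and 591 to 291, 299 and 307 CPM (interaction −1.58, standard error 0.28, adjusted p = 0.00787 from edgeR). Esrra, a regulator of mitochondrial genes, was at 19.7, 17.6 and 23.3 CPM in HMRKO + MI and 29.5 to 56.8 CPM elsewhere (interaction −1.2, adjusted p = 0.0112). Of 73 nuclear genes of the respiratory chain 13 passed lower and 0 higher (17.8% in all, beside the same 8.5% and 6.74%), at a median of −0.20. Ndufs7, a subunit of complex I, was at 73.4, 76.6 and 76.9 CPM in HMRKO + MI and 113 to 134 CPM elsewhere (interaction −0.77, adjusted p = 0.0156, and 0.111 with a GC offset). Of 15 mitochondrially encoded genes 6 passed lower, with a median of −1.25. mt-Co1, a subunit of cytochrome c oxidase, was at 88029, 37317 and 46479 CPM in LC + MI and 35267, 31923 and 34352 CPM in HMRKO + MI (interaction −1.54, adjusted p = 0.0313, over 0.05 when any 1 of 6 livers was left out, up to 0.0730). LC + MI replicate 1 was not among those 6 livers. Without it 2 of the 15 passed and the median was −0.92, and without LC + sham replicate 2 none of the 15 passed. The respiratory chain count was 5 and 2 without these same livers.

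Among secreted hepatic factors 5 of 28 were higher and 4 lower, beside 6.74% and 8.5% of all genes. With 1 liver left out 1 to 5 were higher, fewest without HMRKO + sham replicate 2, and 3 to 5 lower. Fgf21 and Igfbp1 are given above. Igfals, the subunit that holds insulin-like growth factor in serum, was at 13.4, 32.0 and 44.0 CPM in HMRKO + MI and 91.5 to 171 CPM elsewhere (interaction −2.19, adjusted p = 0.0112). Inhbc, an activin chain, had an interaction of −1.37 (adjusted p = 0.0192). Of 30 growth hormone, STAT5 and sex-biased genes, 2 passed in each direction (13.3%, beside 15.2% of all genes). Cyp17a1, a steroid hydroxylase, had an interaction of 2.19 (adjusted p = 0.0119), while Hsd3b5, a male-biased steroid dehydrogenase, had one of −3.06 (adjusted p = 0.0305, over 0.05 when any 1 of 7 livers was left out, up to 0.0703).

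Proliferation and arrest genes passed in both directions. Of 34 cell cycle genes 4 were lower and 1 higher (14.7%, beside 15.2% of all genes). Tk1 (ENSMUSG00000025574), thymidine kinase, was at 38.9, 26.9 and 39.8 CPM in LC + sham, 26.3, 5.23 and 7.85 in LC + MI, 42.3, 34.8 and 51.8 in HMRKO + sham and 1.12, 1.02 and 1.27 in HMRKO + MI (interaction −3.81, standard error 0.68, adjusted p = 0.00812 from edgeR). Birc5 and E2f1, a mitotic and an S-phase regulator, had interactions of −2.60 (adjusted p = 0.00937) and −2.64 (adjusted p = 0.0134). Rrm2, the ribonucleotide reductase subunit, went the other way, at 17.4, 6.94 and 6.04 CPM in HMRKO + MI and at most 3.70 CPM elsewhere (interaction 3.5, adjusted p = 0.0193, and 0.0551 without LC + sham replicate 2). Of 23 p53 and growth arrest genes 2 passed in each direction (17.4%, beside the same 15.2%). Cdkn1a, the cell cycle inhibitor p21, rose in both genotypes and reached 182, 49.2 and 61.4 CPM in HMRKO + MI against 15.3, 22.3 and 29.1 CPM in LC + MI (interaction 2.58, standard error 0.77, adjusted p = 0.0410, over 0.05 when any 1 of 8 livers was left out and 0.255 from limma-voom). Bbc3, the proapoptotic PUMA, was at 2.07, 2.92 and 2.89 CPM in HMRKO + MI and 4.0 to 8.16 CPM elsewhere (interaction −1.77, adjusted p = 0.00650).

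Of 40 interferon-stimulated genes 6 passed lower and 0 higher (median −0.56), beside 8.5% and 6.74% of all genes. With 1 liver left out 2 to 12 passed lower, most without LC + sham replicate 1, and 16 did from limma-voom. Rtp4, a chaperone of receptors, was at 2.40, 3.21 and 2.94 CPM in HMRKO + MI and 6.35 to 14.4 CPM elsewhere (interaction −1.63, adjusted p = 0.0138), and Irf1, a transcription factor of the response, had an interaction of −1.23 (adjusted p = 0.0141). Lymphocyte markers were low with them, at a summed 8.07 to 10.2 CPM in HMRKO + MI, 12.6 to 17.0 in LC + MI, 22.6 to 36.7 in LC + sham and 19.9 to 30.2 in HMRKO + sham, and their part in these differences was not tested. Of 21 clock genes 3 passed (14.3%, beside 15.2% of all genes), all lower and all falling in both genotypes. Per3 was at 32.3, 38.2 and 41.8 CPM in LC + sham, 14.6, 15.8 and 16.3 in LC + MI, 54.8, 63.4 and 70.1 in HMRKO + sham and 13.1, 15.4 and 16 in HMRKO + MI (interaction −0.81, standard error 0.20, adjusted p = 0.0202 from edgeR). The 2 MI groups overlapped, while each HMRKO + sham liver was above each LC + sham liver, a difference of 0.75 log2 units that did not pass (edgeR adjusted p = 0.125). Tef and Usp2, clock outputs, had interactions of −0.78 (adjusted p = 0.0292) and −1.75 (adjusted p = 0.0406), over 0.05 when any 1 of 7 or any 1 of 8 livers was left out (up to 0.0733 and 0.0939).

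**Figure D4:**
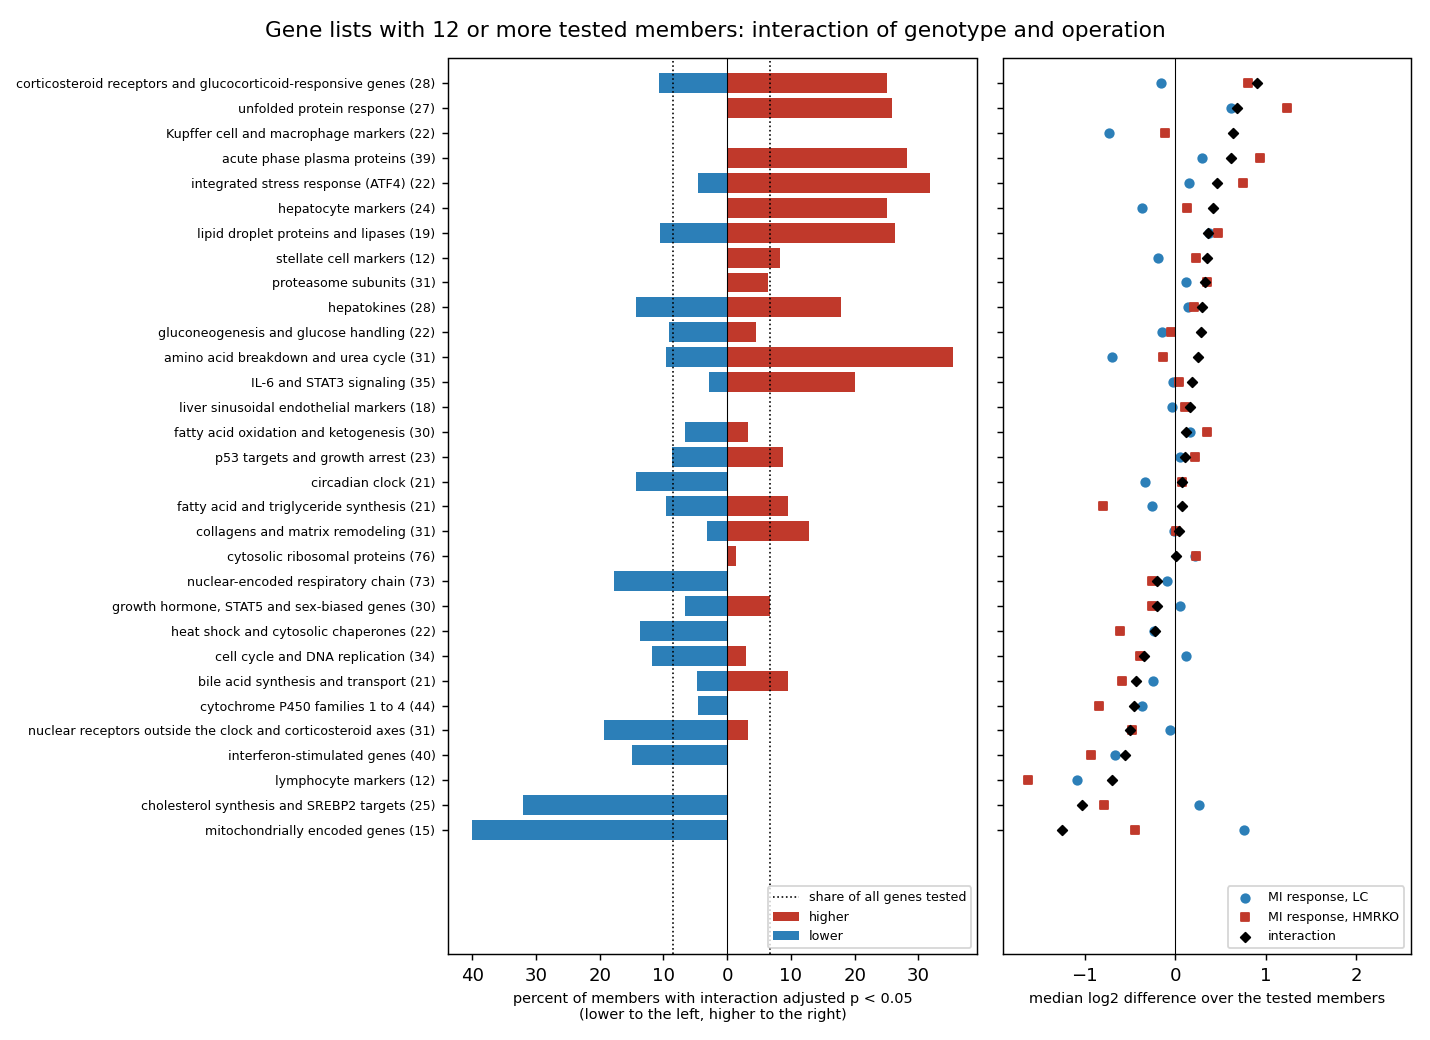
For each list (rows, tested members in parentheses) bars give the percent of members with an adjusted p under 0.05 in the interaction, lower to the left and higher to the right, with the share over all genes dotted (8.5% and 6.74%). Points give the median log2 difference of the 2 MI responses and of the interaction. Lists with fewer than 12 tested members are not drawn. Among those drawn, corticosteroid-responsive genes had the highest median interaction, 0.91, and mitochondrially encoded genes the lowest, −1.25.

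Other large differences were in genes with few counts in some livers. Lepr (ENSMUSG00000057722), the leptin receptor, was at 3.01, 0.999 and 0.971 CPM in LC + sham, 0.501, 2.25 and 1.00 in LC + MI, 0.796, 0.434 and 0.614 in HMRKO + sham and 33.6, 29 and 6.39 in HMRKO + MI (interaction 5.59, standard error 0.97, adjusted p = 0.00769 from edgeR). HMRKO + MI replicate 3 was lower than the other 2 and still above all other livers. Adcy1, an adenylate cyclase, was at 12.1, 6.10 and 4.62 CPM in HMRKO + MI and at most 1.08 CPM elsewhere (interaction 5.61, adjusted p = 0.0101). The transcription factor genes Runx1 and Egr1, the latter an immediate early gene, had interactions of 4.21 (adjusted p = 0.0130) and 3.76 (adjusted p = 0.0136). Bmper, a secreted binder of bone morphogenetic proteins, rose to 32.3, 13.8 and 20.7 CPM in HMRKO + MI from 0.293, 0.337 and 0.922 CPM, but its interaction of 3.37 (adjusted p = 0.0494) missed the threshold when any 1 of 10 livers was left out and in DESeq2 and limma-voom (up to 0.741). Gria3, a glutamate receptor subunit, and Mfsd4a, a membrane transporter, had interactions of 3.34 (adjusted p = 0.0337, over 0.05 when any 1 of 5 livers was left out, up to 0.0800) and 3.34 (adjusted p = 0.0220, 0.0603 without LC + sham replicate 2), with overlapping groups for both.

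Fam177a and Capn11 had large fitted differences with livers of 1 group far apart. Fam177a had 96, 60 and 94 reads in LC + sham, 0, 95 and 107 in LC + MI, 0, 1 and 0 in HMRKO + sham and 83, 69 and 64 in HMRKO + MI. It was thus present in some livers and absent or nearly so in others, including 1 of 3 LC + MI livers, and its fitted interaction of 7.69 (adjusted p = 0.0140) depends on the prior count. Capn11, a calpain, had 98 and 80 reads in 2 LC + MI livers, 72 in 1 HMRKO + sham liver and 0 to 16 in the other 9 (interaction −8.58, adjusted p = 0.0455, over 0.05 when any 1 of 9 livers was left out, up to 0.367). Both fitted values rest on groups at or near 0 reads and are no bound on a fold change.

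Among the genes with the lowest interactions, Hsd3b2 (ENSMUSG00000063730), a 3-beta-hydroxysteroid dehydrogenase of a family with near-identical copies, was at 78.6, 60.6 and 77.1 CPM in LC + sham, 60.8, 12.5 and 19.2 in LC + MI, 89.6, 111 and 86.8 in HMRKO + sham and 0.671, 0.730 and 0.913 in HMRKO + MI (interaction −5.72, standard error 0.68, adjusted p = 0.00390 from edgeR). Mapk15, an atypical MAP kinase, was at 2.29, 2.74 and 2.18 CPM in HMRKO + MI and 9.48 to 61.0 CPM elsewhere (interaction −4.45, adjusted p = 0.00769). Keg1 was at 1.57, 3.87 and 9.19 CPM and 41.4 to 250 CPM (interaction −4.09, adjusted p = 0.00778). Syt3, a synaptotagmin, and Zcwpw1, a histone reader, had values of −4.35 (adjusted p = 0.0125) and −4.04 (adjusted p = 0.00909). Gbp10, a guanylate-binding protein with near-identical copies, had 0, 3 and 4 reads in HMRKO + MI and Clec2h, a C-type lectin, had 0, 3 and 1, and their fitted interactions were −5.54 (adjusted p = 0.00910) and −4.99 (adjusted p = 0.0127). Sema5b, a semaphorin, had one of −4.57 (adjusted p = 0.0135). Cfd, adipsin, a product of adipocytes, was at 34.2, 191 and 170 CPM in HMRKO + sham and 2.0 to 20.3 CPM in the other 9 livers, so its interaction of −4.69 (adjusted p = 0.0208, and 0.0516 without LC + MI replicate 3) rests on the high HMRKO + sham livers. Clone and predicted-gene names made up 67 of the higher and 151 of the lower calls and are counted only.

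Few single markers of other liver cells passed the interaction test. Over 7 lists with 85 tested genes, 1 passed higher and 0 lower, against 6.74% and 8.5% of all genes. It was Hgf, the hepatocyte growth factor of stellate cells, at 1.23, 1.42 and 1.67 CPM in HMRKO + MI and 0.289 to 1.22 CPM elsewhere (interaction 2.04, adjusted p = 0.0319, over 0.05 when any 1 of 6 livers was left out). Neutrophil markers, 9 of 14 tested, summed to 4462 to 5174 CPM in LC + MI and 4977 to 9001 CPM in HMRKO + MI, against 449 to 2095 CPM in the sham livers, and 7 of the 9 had a positive interaction (median 0.95, beside responses of 1.08 in LC and 1.98 in HMRKO livers). Retnlg, a neutrophil granule gene, was at 6.38, 4.24 and 3.96 CPM in HMRKO + MI and 0.0747 to 1.53 CPM elsewhere, with an interaction of 3.31 that did not pass (adjusted p = 0.0527). Members other than Retnlg thus made up nearly all of the neutrophil sums. Lcn2 is on this list, and the part of single members, or of hepatocytes, in the sums was not tested. Kupffer cell and macrophage markers summed to 288 to 379 CPM in HMRKO + MI and 341 to 389 CPM in LC + MI, against 382 to 454 CPM in HMRKO + sham and 507 to 665 CPM in LC + sham. None of the 22 passed, and 19 had a positive interaction (median 0.64, and 0.51 to 0.81 with 1 liver left out, beside responses of −0.73 in LC and −0.11 in HMRKO livers). On the sums the 2 sham groups did not overlap and the 2 MI groups did, so the lower HMRKO + sham level entered the difference. Hepatocyte markers, all 24 tested and 6 of them passing higher, summed to 135615 to 138591 CPM in HMRKO + MI and 94160 to 121688 CPM in the other livers, and Fgb, Tat and Ass1 are among them. No marker of these lists was at 0 in all 12 livers. In bulk liver fewer cells of a type and less RNA per cell cannot be told apart. Of 31 collagen and matrix genes 4 were higher and 1 lower (16.1%, beside 15.2% of all genes). Col4a1, a basement membrane collagen, was at 45.7, 39.3 and 38.6 CPM in HMRKO + MI and 9.59 to 24.6 CPM elsewhere (interaction 1.44, adjusted p = 0.0108). Cytosolic ribosomal proteins had 1 of 76 passing (1.32%) and proteasome subunits 2 of 31 (6.45%), all higher, both below the 15.2% of all genes.

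The calls differed in base composition. The longest annotated transcript had a median GC content of 46.1% among the higher genes, 52.8% among the lower genes and 49.6% over all genes tested, and a median length of 3474, 2537 and 3178.5 bases (GENCODE M21, 99.6% or more of each set matched). With the genes in 5 equal bins by GC content, 6.88% were called higher and 3.89% lower in the lowest bin and 1.47% and 9.79% in the highest. Medians of the interaction were 0.23 in the lowest and −0.26 in the highest bin, those of the HMRKO response 0.16 and −0.21, and those of the LC response −0.075 and 0.059. In single livers, the median deviation of the highest bin from the mean of all livers was −0.11, −0.093 and −0.21 log2 units in HMRKO + MI and between −0.093 and 0.18 in the other 9. A fit with an offset for GC content in each liver, chosen after seeing the data, called 505 genes higher and 797 lower, of which 416 and 693 were among the original calls. Its shares were 3.37% higher and 6.32% lower in the lowest bin and 3.58% and 5.86% in the highest.

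**Figure D5:**
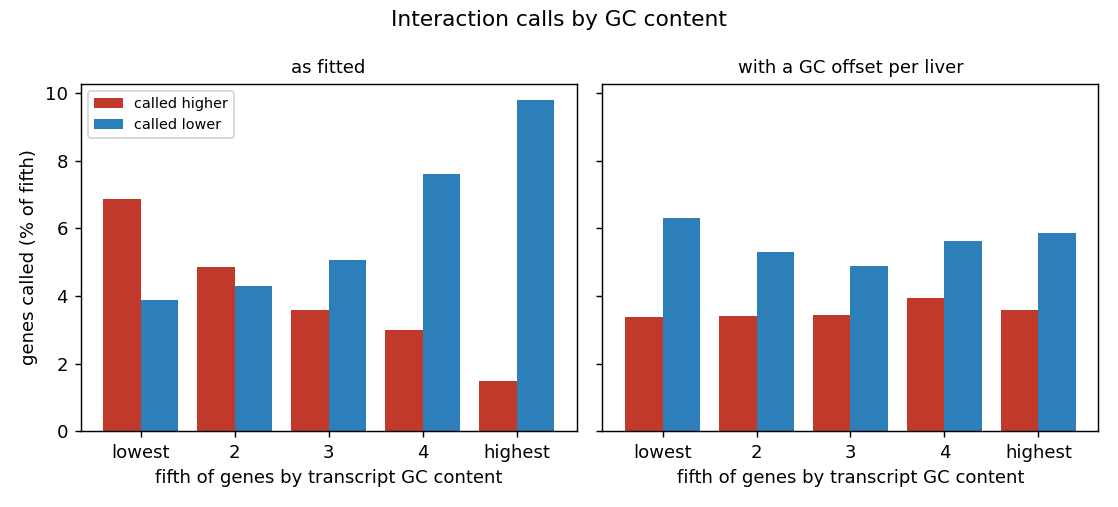
Bars give the percent of genes called higher (red) and lower (blue) in the interaction in each of 5 equal bins of genes by GC content of the longest transcript (x axis), as fitted (left) and with a GC offset per liver (right). As fitted the lower calls grew from 3.89% to 9.79% and the higher calls shrank from 6.88% to 1.47%, and with the offset both stayed between 3.37% and 6.32%.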

How the data were processed

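Liver RNA of 12 mice at 1 day was compared. The deposited table holds whole-number read counts per Ensembl gene, not normalized, which the authors made from TruSeq libraries read on an Illumina HiSeq instrument. The submitters' processing notes list HISAT2 2.1.0, Bowtie2 2.2.3, TopHat2, DESeq2 and the mm9 build with no role. For the counting program, the annotation and strand, nothing is given in the sources used here. Genotypes and sham operations came from the labels, and the MI operation and the time from the study design.

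Genes were kept by filterByExpr (minimum count 10, total 15), scaled by TMM and fitted with 1 coefficient per group in edgeR 4.0.16 (R 4.3.3). The interaction was tested by the two-sided quasi-likelihood F test with Benjamini-Hochberg adjustment over all 14266 genes, and calls needed an adjusted p under 0.05 with an absolute log2 difference over 1. Every adjusted p is from this fit unless another tool is named. CPM are TMM-scaled. The script was tested on simulated counts with a known interaction, 50 genes at each size. At an adjusted p under 0.05, 4 passed at 1 log2 unit, 22 at 1.5 and 44 at 3, and 0 had the wrong sign. Of the unchanged genes among the 14049 fitted, 16 passed. Most simulated differences near the limit of 1 log2 unit were thus missed. Alternatives were RLE factors, DESeq2 1.42.0, limma-voom with sample quality weights (limma 3.58.1), other filters and thresholds, a replicate block, each liver left out, and, chosen after seeing the data, an offset for GC content.

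Named genes were those the study names for the liver, the 12 largest differences each way among calls with a group mean of at least 2 CPM and no clone name, and up to 4 members of each list by smallest p. Of the 121 genes this gave, 86 are named, and some of the others are not reported here. The comparison, the lists and the named genes were chosen with earlier results of these data known. The 6 livers of the other time point were not used. Totals of 19098704 to 28945526 counts per liver set the precision.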

Additional observations from a re-analysis of the deposited data

Results flagged for a closer look

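The responses to MI differed between the genotypes by the test of the difference itself, the interaction, for 565 genes called higher and 876 called lower. The 80 named genes that passed it at an adjusted p under 0.05 from edgeR are given here by the log2 difference of the 2 responses, with all 12 livers.

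The difference also passed in each of the other fits that gave a value for 56 of these genes. The higher differences among them were 7.69 for Fam177a (a fitted value that depends on the prior count and is no bound), 5.61 for Adcy1, 5.59 for Lepr, 5.20 for Igfbp1, 4.21 for Runx1, 4.12 for Asns and 3.76 for Egr1. Further ones were 2.79 for Fga, 2.50 for Chac1, 2.42 for Slco1a4, 2.42 for Fgg, 2.31 for Mthfd2, 2.2 for Tat, 2.19 for Cyp17a1 and 2.17 for Klf9. Then came 2.08 for Plin2, 1.99 for Gpt2, 1.88 for Serpina3m, 1.86 for Fgb, 1.6 for Arg1, 1.49 for Mat1a and 1.47 for Cebpd. Smaller ones were 1.44 for Col4a1, 1.39 for Ass1, 1.3 for Xbp1, 1.3 for Il6ra, 1.28 for Plin5, 1.26 for Cpt1a, 1.22 for Pnpla2 and 1.05 for Tbl1xr1. The lower differences were −5.72 for Hsd3b2, −5.54 for Gbp10, −4.99 for Clec2h, −4.57 for Sema5b, −4.45 for Mapk15, −4.35 for Syt3, −4.09 for Keg1 and −4.04 for Zcwpw1. Next in size came −3.81 for Tk1, −2.69 for Prodh2, −2.64 for E2f1, −2.60 for Birc5, −2.38 for Nsdhl, −2.30 for Cyp2c54, −2.29 for Fkbp4, −2.19 for Igfals and −1.86 for Acss2. These were followed by −1.83 for Pfkfb1, −1.77 for Bbc3, −1.76 for Acsl3, −1.63 for Rtp4, −1.58 for Nr1i3, −1.37 for Inhbc, −1.23 for Irf1, −1.2 for Esrra and −0.81 for Per3.

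For the other 24 genes the adjusted p was over 0.05 in at least 1 other fit. They were 3.5 for Rrm2, 3.38 for Lpin1, 3.37 for Bmper, 3.34 for Gria3, 3.34 for Mfsd4a and 2.73 for Il1r1. They also included 2.58 for Cdkn1a, 2.51 for Fgf21, 2.04 for Hgf, 1.74 for Hspa5, 1.51 for Hsp90b1 and 0.88 for Stat3. On the lower side they were −8.58 for Capn11 (with the same limit as Fam177a), −4.69 for Cfd, −3.06 for Hsd3b5, −2.12 for Dhcr7, −2.08 for Abcb11 and −2.01 for Vnn1. The remaining ones were −1.75 for Usp2, −1.66 for Mvk, −1.54 for mt-Co1, −1.2 for Srebf1, −0.78 for Tef and −0.77 for Ndufs7.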

How the results depend on the processing

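The interaction calls, 565 higher and 876 lower, were within 1.5 times of these counts with RLE factors, DESeq2, limma-voom, no filter, a stricter filter, the mitochondrial genes left out and a GC offset chosen after seeing the data. Similar totals did not mean the same genes. limma-voom called 589 higher and 1045 lower, of which 370 and 666 were among the original calls. DESeq2 called 666 and 1056, of which 554 and 868 were. Higher and lower interaction genes numbered 962 and 1213 at any fold change, 114 and 283 over 2 log2 units and, with the limit of 1 log2 unit kept, 935 and 1332 at an unadjusted p under 0.05. Leaving out 1 liver gave 292 to 674 and 514 to 1026. For the LC response, 206 higher and 149 lower, limma-voom gave 500 and 465, no filter 314 and 290, any fold change 382 and 332, over 2 log2 units 61 and 38, and an unadjusted p under 0.05 with the limit of 1 log2 unit 439 and 384. DESeq2 gave 241 lower, and leaving out 1 liver 96 to 275 higher and 43 to 280 lower. For the HMRKO response, 1293 and 1621, any fold change gave 3138 and 3099 and over 2 log2 units 344 and 486. The cause of these shifts was not tested, except that the fold limit itself sets the counts.

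Differences of 3 genes that did not pass changed sign. On the linear scale the interaction of Nr3c2 was 1.03 CPM and that of Nr1d1 −3.40 CPM. For Nr1d2 it was 0.091 from limma-voom, 0.0076 with the replicate block and between −0.12 and 0.13 with 1 liver left out. Of 18 pairs of livers with the same number in 2 groups, 3 had deviations correlated over 0.1 (range −0.158 to 0.162). With 3 livers per group this cannot show whether livers with the same number were paired. The replicate block called 511 genes higher and 812 lower, 485 and 768 of them among the original calls. Depth sets the limit for genes at few reads, such as Gbp10 and Clec2h in HMRKO + MI livers.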
